A study of Mus musculus with 3 samples.

Results

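The kinase core of the Hippo pathway and its upstream regulators were described gene by gene in the late fetal mouse stomach. The 10 genes were taken by symbol from the 46675 symbols listed over 3 droplet single-cell RNA libraries of hindstomach at embryonic day 18.5, and all 10 were present in each library. Levels are CPM, the unique molecular identifiers (UMIs) of a gene divided by all UMIs of the summed cells and scaled to 1000000, and UMIs were read at the 3′ end of transcripts. The first library is Shh-Cre;YAP5SA (hereafter YAP5SA), in which Shh-Cre, a recombinase active in gut epithelium, is combined with a constitutively active YAP that can no longer be phosphorylated at its inhibitory sites. The second is Shh-Cre;YaploxP/loxP (Yap knockout), in which both Yap alleles are floxed. The third is Shh-Cre alone (control), so all groups carry the recombinase. Each genotype is 1 library, and the sources used here do not give the number of embryos behind a library, the design of the YAP5SA allele or the floxed part of Yap1. No difference below therefore has a replicate check or a test, and each 95% interval covers counting error only.

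In the Hippo pathway the kinases Stk3 and Stk4, held by the scaffold Sav1, phosphorylate the kinases Lats1 and Lats2, whose activity needs the adaptors Mob1a and Mob1b. Active Lats kinases phosphorylate YAP and its relative TAZ (Wwtr1), which keeps them out of the nucleus and off the TEAD transcription factors. Nf2 (Merlin), the paired-WW-domain proteins Wwc1 (Kibra) and Wwc2, and the giant cadherin Dchs1, which is the partner of Fat4, act upstream of the kinases at the cell cortex and at cell contacts. In the developing stomach the pathway is known for its control of epithelial and mesenchymal growth.

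The promoters of Wwc2 and Wwc1 are shown because these were the members with higher levels in YAP5SA epithelium. Each is the RefSeq window of 300 bases (250 before and 50 after the gene's start, build GRCm38.p6), read 5′ to 3′ on the gene's strand, and capitals mark CATTCC or its reverse complement GGAATG, the core of the motif that TEAD factors bind.
Wwc2 (chr8:47990495-47990794, minus strand): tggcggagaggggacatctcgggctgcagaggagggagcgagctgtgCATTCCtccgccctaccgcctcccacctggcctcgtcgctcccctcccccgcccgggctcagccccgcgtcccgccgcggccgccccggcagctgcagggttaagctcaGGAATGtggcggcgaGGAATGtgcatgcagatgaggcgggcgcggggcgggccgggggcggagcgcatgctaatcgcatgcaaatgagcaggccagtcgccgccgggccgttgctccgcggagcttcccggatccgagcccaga
Wwc1 (chr11:35980478-35980777, minus strand): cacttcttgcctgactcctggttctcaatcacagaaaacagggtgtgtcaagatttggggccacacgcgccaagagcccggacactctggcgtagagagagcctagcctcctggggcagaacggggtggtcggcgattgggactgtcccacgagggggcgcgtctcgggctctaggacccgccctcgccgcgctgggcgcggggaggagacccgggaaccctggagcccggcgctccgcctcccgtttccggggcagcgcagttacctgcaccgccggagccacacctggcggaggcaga
The Wwc2 window held 3 matches, starting at bases 48, 157 and 172, and the Wwc1 window held 0. Of 32851 promoter windows of the same length, 14.7% held at least 1 match on either strand and 43 (0.131%) held 3 or more. RefSeq windows were matched for 8 of the 10 members (9 windows), and of these Mob1a and Sav1 held 1 match each. A match describes letters in a window and says nothing about binding, and the deposited counts were made on another build, GRCm39.

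Cells were sorted into classes by marker genes. After filters 8518 YAP5SA, 4890 Yap knockout and 6959 control cells were left, with median depths of 5224.5 UMIs in YAP5SA, 4979.5 in Yap knockout and 4900 in control. The markers gave 8 classes with at least 50 cells in each library, and the epithelial class held 1602 YAP5SA, 710 Yap knockout and 505 control cells with 17012522 UMIs in YAP5SA, 6749869 in Yap knockout and 3467389 in control. In classes and libraries with at least 50 cells, further markers kept out of the gate were higher in their own class than in the other gated cells in 66 of 66 values, with a median of 30.5-fold and a lowest of 2.14-fold. RNA of other cells was present in every class. The 8 fibroblast markers summed to 3184 CPM in YAP5SA, 1075 CPM in Yap knockout and 7438 CPM in control epithelial cells, with none at 0. In erythroid cells of the same libraries, which should lack them, they summed to 3481 CPM in YAP5SA, 926 CPM in Yap knockout and 7272 CPM in control. Yap1 itself stood at 54.7 CPM in YAP5SA, 22.1 CPM in Yap knockout and 49.6 CPM in control epithelial cells, which is 0.445 of control (0.355 to 0.557) in the knockout and 1.10 of control (0.937 to 1.31) in YAP5SA. Since the floxed part is not known, 3′ counts of Yap1 check the knockout only in part, and those of YAP5SA depend on the 3′ end of the transgene.

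**Figure D1:**
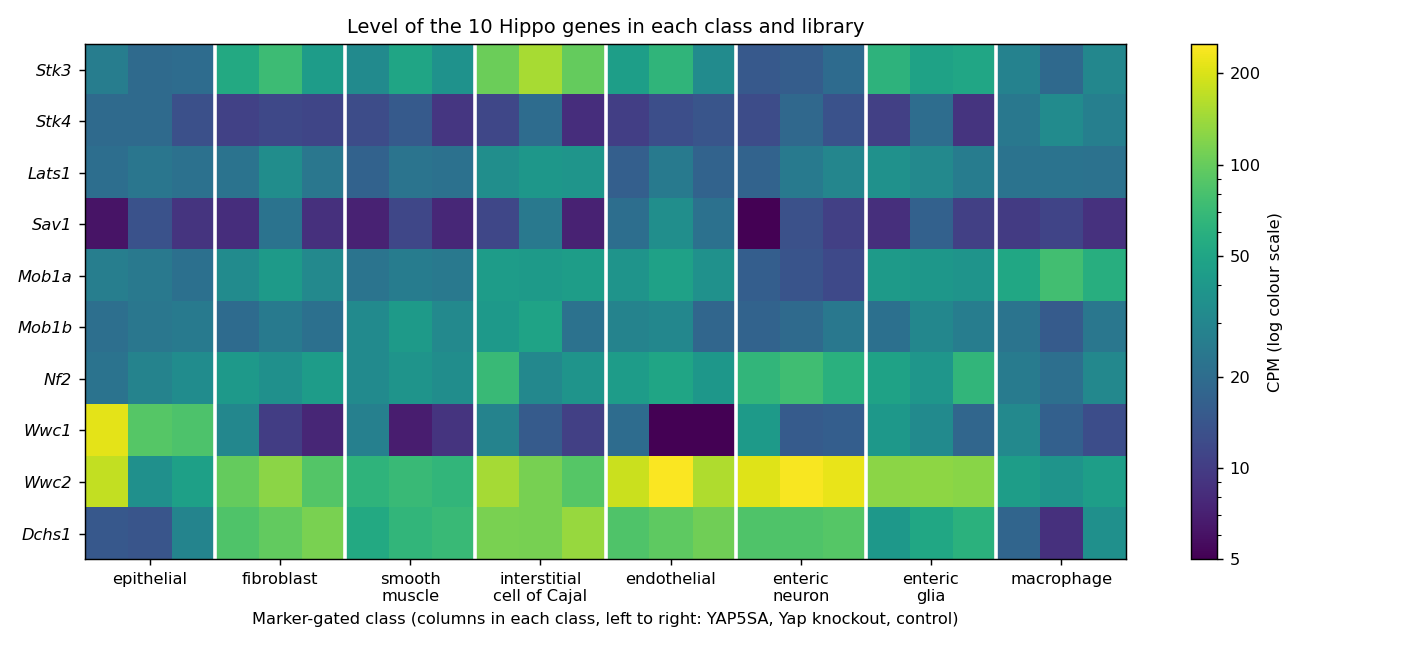
Level of each of the 10 members in 8 marker-gated classes, with the YAP5SA, Yap knockout and control libraries side by side in each class and CPM on a log colour scale. Wwc1 stands out in the epithelial columns, where it reached 212 CPM in YAP5SA, and Dchs1 is dark there and bright in interstitial cells of Cajal and fibroblasts.

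Among the kinases, Stk3 varied most between cell types and Lats1 little. Stk3 had 104 CPM in YAP5SA, 150 CPM in Yap knockout and 99.4 CPM in control interstitial cells of Cajal, the pacemaker cells of gut muscle, whose range lay above that of every other class. Enteric neurons were lowest for Stk3, with 14.9 CPM in YAP5SA, 15.9 CPM in Yap knockout and 19.7 CPM in control, so that the class means over the 3 libraries lay 7.00-fold apart. Epithelial cells were next to lowest with a mean of 21.9 CPM, and their range overlapped that of neurons.

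Stk4 had its highest levels in macrophages, with 24.1 CPM in YAP5SA, 33.0 CPM in Yap knockout and 27.1 CPM in control. Of the 8 classes, no other range reached that of macrophages, but neutrophils, with at least 50 cells only in YAP5SA, had 32.8 CPM there. The other 7 of the 8 had means from 17.2 CPM in the epithelium to 11.2 CPM in fibroblasts, and each neighbour in that order overlapped the next. Lats1, the kinase that acts on YAP, ranged from a class mean of 37.7 CPM in interstitial cells of Cajal to 19.5 CPM in endothelium, a 1.93-fold span. All 7 pairs of neighbours in its order overlapped. Interstitial cells of Cajal, at 34.6 CPM in YAP5SA, 39.7 CPM in Yap knockout and 38.7 CPM in control, lay above the ranges of the classes other than enteric glia. These values rest on 24 UMIs in YAP5SA, 18 in Yap knockout and 37 in control. Their counting intervals reached down to 22.2 CPM in YAP5SA, 23.5 CPM in Yap knockout and 27.3 CPM in control, into the ranges of other classes.

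The scaffold and the adaptors differed in where they were highest. Sav1 had 20.6 CPM in YAP5SA, 34.4 CPM in Yap knockout and 21.4 CPM in control endothelial cells, and a mean of 9.5 CPM in the epithelium, with overlap between all 7 pairs of neighbours. Mob1a was highest of the 8 classes in macrophages, with 51.5 CPM in YAP5SA, 76.3 CPM in Yap knockout and 57.7 CPM in control, all above the range of the next class, while YAP5SA neutrophils had 67.9 CPM. It was lowest in enteric neurons, with 16.1 CPM in YAP5SA, 13.9 CPM in Yap knockout and 11.9 CPM in control, and neurons lay below the epithelial range of 21.3 to 26.7 CPM. Mob1b spanned 1.85-fold between class means of 37.4 CPM in interstitial cells of Cajal and 20.2 CPM in neurons. Smooth muscle, at 32.3 CPM in YAP5SA, 42.1 CPM in Yap knockout and 31.4 CPM in control, lay above the range of enteric glia, the next class for Mob1b. The last 500 bases of the annotated transcripts of Mob1a and Mob1b shared 0 stretches of 60 bases, and the same held for Stk3 with Stk4, Wwc1 with Wwc2 and Lats1 with Lats2. The 3′ end of Sav1 is overlapped on the other strand by Atl1, and Stk4 and Wwc2 overlap Tomm34 and Cldn22 away from their 3′ ends. The sources used here do not say whether counting used the strand, so the counts of Sav1 in particular are uncertain.

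Of the upstream members, Nf2 had its highest class mean in enteric neurons, with 65.8 CPM in YAP5SA, 75.2 CPM in Yap knockout and 59.7 CPM in control. Interstitial cells of Cajal were higher in YAP5SA, at 70.7 CPM, and enteric glia were higher in control, at 65.7 CPM. The epithelium was next to lowest for Nf2 with a mean of 28.2 CPM, above macrophages with 25.7 CPM, and all 7 pairs of neighbours overlapped. Wwc1 was the only member whose mean was highest in the epithelium, at 212 CPM in YAP5SA, 88.7 CPM in Yap knockout and 83.6 CPM in control, a range that lay above that of every other class with at least 50 cells in each library. Of the 8 classes, enteric glia followed with 40.2 CPM in YAP5SA, 32.5 CPM in Yap knockout and 18.1 CPM in control. Mesothelial cells, with at least 50 cells only in control, had 59.4 CPM of Wwc1 there (47.3 to 73.8), above enteric glia. Endothelium was lowest with 20.0 CPM in YAP5SA, 4.59 CPM in Yap knockout and 2.28 CPM in control, so the highest and lowest class means were 14.3-fold apart.

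Wwc2 had a different pattern. Its class mean was highest in enteric neurons, with 206 CPM in YAP5SA, 242 CPM in Yap knockout and 219 CPM in control. The endothelial range of 158 to 244 CPM overlapped that of neurons, and its Yap knockout value of 244 CPM lay slightly above theirs. In the epithelium its place in the order depended on the genotype, with 175 CPM in YAP5SA, 35.6 CPM in Yap knockout and 46.4 CPM in control. Macrophages had the lowest class mean for Wwc2 at 42.1 CPM. Dchs1 was highest in interstitial cells of Cajal, with 114 CPM in YAP5SA, 112 CPM in Yap knockout and 137 CPM in control, and fibroblasts followed with 85.5 CPM in YAP5SA, 97.2 CPM in Yap knockout and 114 CPM in control. Its mean was lowest in the epithelium, with 14.6 CPM in YAP5SA, 14.1 CPM in Yap knockout and 29.1 CPM in control, a 6.28-fold span between class means. Macrophages overlapped the epithelium and were lower in Yap knockout, at 8.60 CPM. In erythroid cells Dchs1 stood at 18.7 CPM in YAP5SA and 27.3 CPM in control, beside 14.6 CPM in YAP5SA and 29.1 CPM in control epithelial cells, although erythroid cells should not express it.

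**Figure D2:**
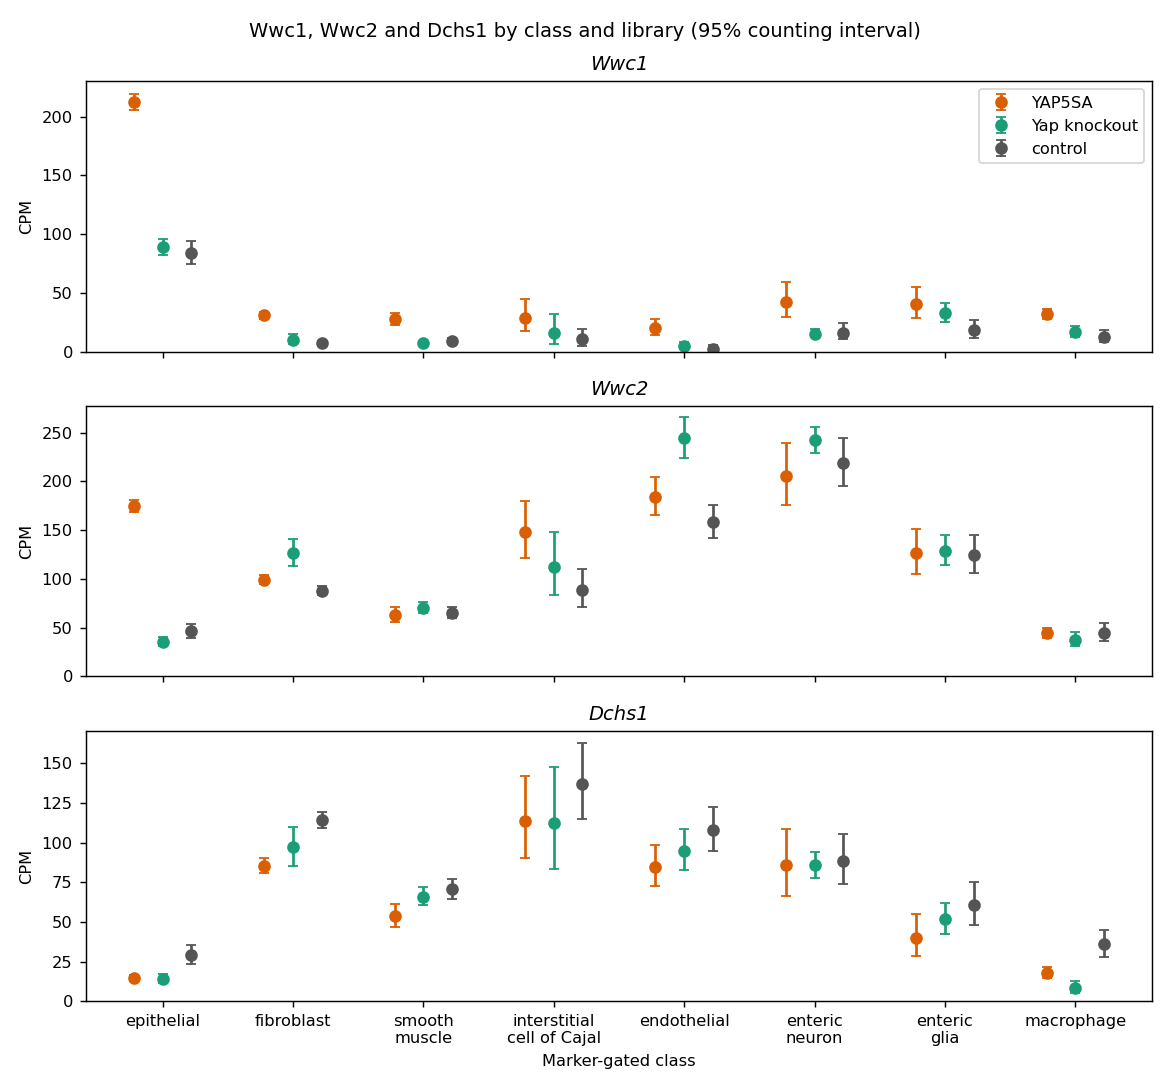
Wwc1, Wwc2 and Dchs1 in CPM by class, with 1 point per library (YAP5SA, Yap knockout, control from left to right) and bars for the exact 95% counting interval. In the epithelium Wwc1 and Wwc2 reach 212 and 175 CPM in YAP5SA, and Dchs1 lies below 30 CPM in all 3 libraries.

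The members with the widest control range across classes, as a difference in CPM, were Wwc2 and Dchs1. The level filter kept 12553 genes, before mitochondrial, ribosomal, haemoglobin, sex-linked marker and predicted genes were left out of the ranking. The genes most like Wwc2 and Dchs1 were then sought over 30 class and library sums of 12 classes. For Wwc2 these were Tspan6 (Pearson r = 0.91), Trim3 (0.91) and Sptan1 (0.90), and for Dchs1 they were Zfta (0.92), Smarca2 (0.90) and Tmem158 (0.89), on log2(CPM + 5). The sums share libraries and the RNA of other cells, and these values are descriptions.

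In the epithelium, YAP5SA was compared with control to ask how the upstream genes of the pathway stand when YAP is held active. The cells compared came mostly from different clusters of a joint clustering. Counting all kept cells, gated or not, the largest epithelial cluster held 1536 YAP5SA, 0 Yap knockout and 2 control cells. Another held 41 YAP5SA, 492 Yap knockout and 465 control cells, and a further one 17 YAP5SA, 572 Yap knockout and 328 control cells. Of the cells in these clusters, 1382, 802 and 201 in that order were gated as epithelial and so entered the comparisons. In the main setting Wwc1 and Wwc2 were higher, Nf2 and Dchs1 were lower, and no kinase, scaffold or adaptor passed 1.5-fold. Wwc2 had 2976 UMIs (175 CPM) in YAP5SA and 161 UMIs (46.4 CPM) in control, a ratio of 3.77 (95% interval 3.21 to 4.44). Wwc1 had 3612 UMIs (212 CPM) in YAP5SA and 290 UMIs (83.6 CPM) in control, a ratio of 2.54 (2.25 to 2.87). Both intervals lie wholly above 1.5. With the profile of non-epithelial cells of the same library subtracted, Wwc2 had 206 CPM in YAP5SA and 19.4 CPM in control, a ratio of 10.7. The size of this subtraction was set from collagen genes, and ratios after it, here and below, carry no interval. It took away more Dchs1 than was measured, as given below. Control Wwc2 was likewise higher in non-epithelial cells, at 91.4 CPM, than in the epithelium. The sizes of the ratios after the subtraction are therefore uncertain.

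Nf2 had 22.1 CPM in YAP5SA and 33.7 CPM in control, a ratio of 0.655 (0.531 to 0.813), close to the 1.5-fold limit, and in 2 of 10 alternative settings it was not past it. Dchs1 had 14.6 CPM in YAP5SA and 29.1 CPM in control, a ratio of 0.502 (0.397 to 0.640). The fibroblast marker sum in epithelial cells was 3184 CPM in YAP5SA and 7438 CPM in control. In Yap knockout it was 1075 CPM, lower than in YAP5SA, while Dchs1 was at a like level there, 14.1 CPM. Fibroblasts express Dchs1 strongly, and the part of free RNA in its epithelial values was not tested. With the RNA of non-epithelial cells subtracted, Dchs1 fell below 0 in all 3 libraries and was set to 0. The step took away more Dchs1 than was measured there, so it leaves no epithelial level to compare. With each cell given the same weight its ratio was 0.696, inside the limit.

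The kinases stood closer to control. Stk4 had 19.3 CPM in YAP5SA and 13.0 CPM in control, a ratio of 1.49 (1.09 to 2.08), just inside the limit. Stk3 had 26.4 CPM in YAP5SA and 19.9 CPM in control, a ratio of 1.33 (1.03 to 1.73) that became 2.55 after the same subtraction. Lats1 had 20.5 CPM in YAP5SA and 21.6 CPM in control, a ratio of 0.948 (0.737 to 1.23). The adaptor Mob1a had a ratio of 1.25 (0.976 to 1.62) and Mob1b one of 0.849 (0.668 to 1.09). The scaffold Sav1 had 6.11 CPM in YAP5SA and 8.94 CPM in control, a ratio of 0.684 (0.454 to 1.06) that rests on 31 control UMIs. The intervals of Mob1a, Mob1b and Lats1 leave out a 2-fold difference in either direction at this depth. Some of these genes did pass 1.5-fold under the 10 alternative settings. Stk4 was past it in 4 (up to 1.74), Sav1 in 3 (down to 0.582), Stk3 in 2 and Mob1a in 2. Lats1 and Mob1b were past it in 0.

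In total 4 of 10 members passed 1.5-fold, 2 higher and 2 lower (3 higher and 1 lower with TMM scaling, a trimmed-mean correction of the library sums), where 46.9% of the 18117 genes with at least 20 UMIs over both libraries did (26.4% higher and 20.5% lower). The members' share is near that background, so it is no result about the members as a set. Their median log2 ratio, with 5 CPM added to each value, was 0.10, beside 0.05 over all genes measured.

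**Figure D3:**
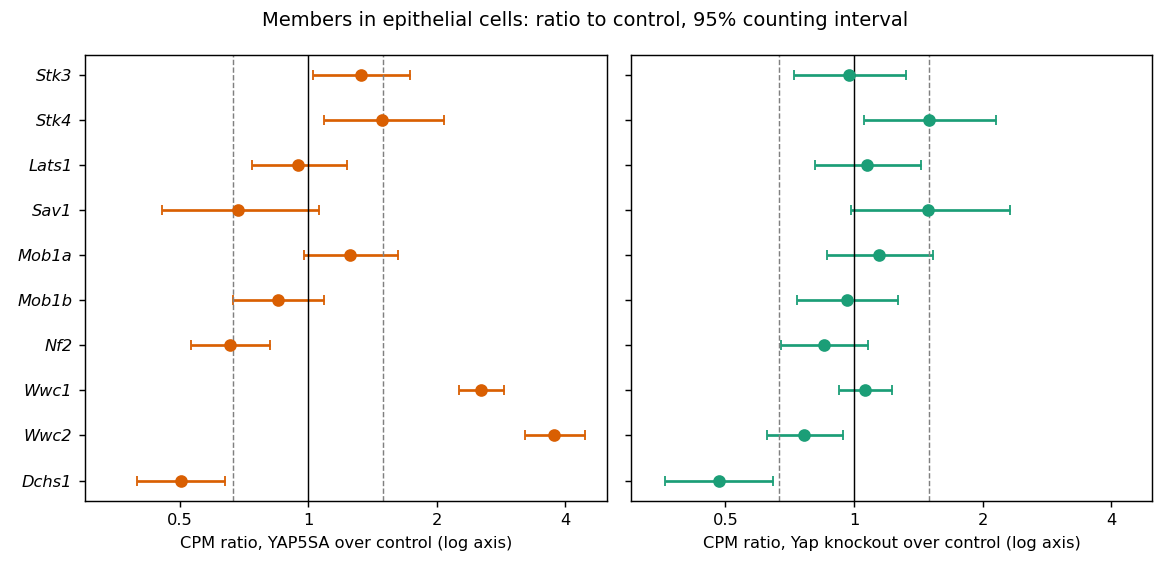
Ratio of CPM in epithelial cells for each member, YAP5SA over control at left and Yap knockout over control at right, on a log axis with 95% counting intervals and dashed lines at 1.5-fold either way. Wwc2 (3.77) and Wwc1 (2.54) lie far right in the left panel, and Dchs1 (0.483) is the only point past the lines in the right panel.

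The Yap knockout was compared with control in the same way, and in it 1 of 10 members passed 1.5-fold, where 30.2% of 15597 genes did (16.7% higher and 13.4% lower). With TMM scaling 1 member was past it higher and 1 lower. The member past it in CPM was Dchs1, with 14.1 CPM in Yap knockout and 29.1 CPM in control, a ratio of 0.483 (0.361 to 0.646). The subtraction that left 0 applies here too, and with each cell given the same weight the ratio was 0.735. The WW-domain genes were within 1.5-fold of control. Wwc1 had 88.7 CPM in Yap knockout and 83.6 CPM in control, a ratio of 1.06 (0.921 to 1.23), and Wwc2 had 35.6 CPM in Yap knockout and 46.4 CPM in control, a ratio of 0.766 (0.625 to 0.941). After the subtraction Wwc2 had 5.53 CPM in Yap knockout and 19.4 CPM in control, a ratio of 0.286. Both comparisons use the same control library.

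Stk4 and Sav1 lay just under the limit in the knockout. Stk4 had 19.4 CPM in Yap knockout and 13.0 CPM in control, a ratio of 1.495 (1.06 to 2.15), and it passed in 3 of 10 alternative settings, with a ratio of 2.34 when each cell was given the same weight. Sav1 had 13.3 CPM in Yap knockout and 8.94 CPM in control, a ratio of 1.49 (0.982 to 2.32), and it passed in 4. Stk3, Lats1, Mob1a, Mob1b and Nf2 had ratios between 0.852 and 1.15, each with an interval that includes 1. The members' median log2 ratio was 0.03, as it was over all genes measured.

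The share of epithelial cells with a UMI was highest in YAP5SA for both WW-domain genes. Wwc1 was detected in 70.3% of YAP5SA cells (95% Clopper-Pearson interval 68.0 to 72.6), 36.6% of Yap knockout cells (33.1 to 40.3) and 32.9% of control cells (28.8 to 37.2). Wwc2 was detected in 63.3% of YAP5SA cells (60.9 to 65.7), 22.5% of Yap knockout cells (19.5 to 25.8) and 22.4% of control cells (18.8 to 26.3). The epithelial cells differed in depth, with medians of 7112.5 UMIs in YAP5SA, 5195.5 in Yap knockout and 4243 in control, so each cell was also thinned to 1000 UMIs. Wwc1 was then detected in 19.4% of YAP5SA, 9.86% of Yap knockout and 9.11% of control cells. Wwc2 was then detected in 15.3% of YAP5SA, 4.23% of Yap knockout and 4.36% of control cells, with YAP5SA above the other intervals for both genes. Both genes were seen together in 814 of 1602 YAP5SA cells (50.8%), 85 of 710 Yap knockout cells (12.0%) and 45 of 505 control cells (8.91%).

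Erythroid cells, at median depths of 7534.5 UMIs in YAP5SA and 7236 in control, gave the background of free RNA, and in Yap knockout they were under 50 cells. Wwc1 was detected in 19.1% of YAP5SA and 2.41% of control erythroid cells, and Wwc2 in 25.9% of YAP5SA and 21.7% of control erythroid cells. Epithelial shares lay above these intervals for both genes in YAP5SA, but for Wwc1 alone in control, where the intervals of Wwc2 overlapped. Those shares set control epithelial cells against deeper erythroid cells, and at the thinned depth the same 3 epithelial shares had intervals above the erythroid ones. Dchs1 was detected in 1.12% of YAP5SA and 2.77% of control epithelial cells after thinning, and in 0.909% of YAP5SA and 1.20% of control erythroid cells, with overlapping intervals. For the remaining 7 members the thinned intervals of epithelial and erythroid cells overlapped too in both libraries, so a difference from erythroid cells was not detectable at this depth. Whether erythroid cells express these 7 genes themselves was not tested. The overlap therefore does not place their epithelial levels at the background of free RNA.

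**Figure D4:**
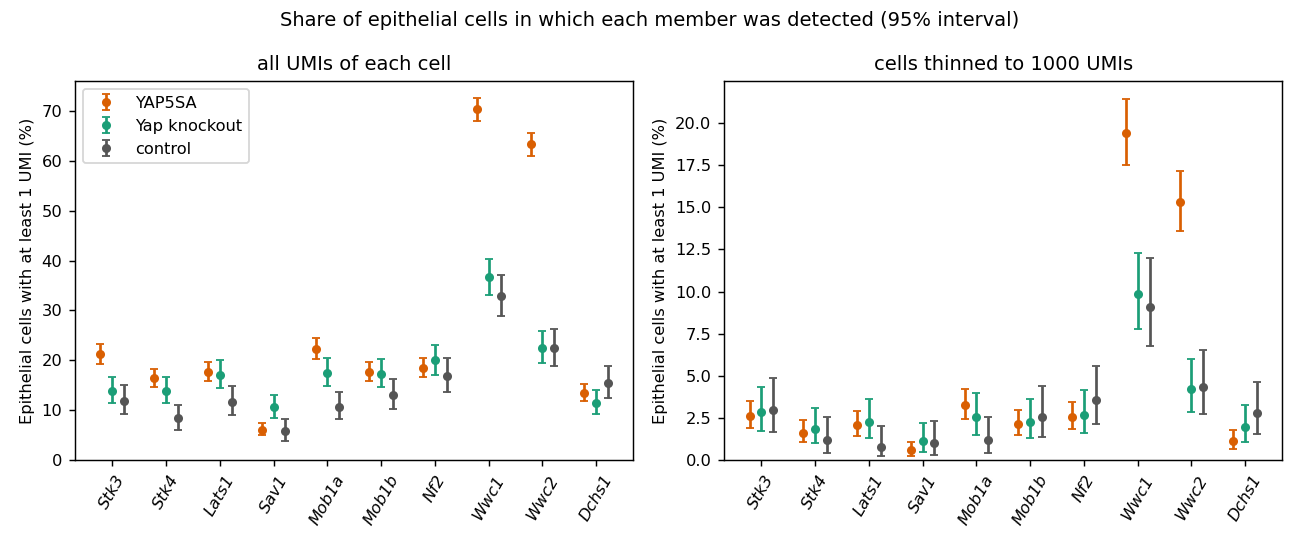
Percent of epithelial cells with at least 1 UMI of each member, from all UMIs (left) and after thinning each cell to 1000 UMIs (right), for YAP5SA, Yap knockout and control with 95% intervals. Wwc1 and Wwc2 are set apart in YAP5SA in both panels, at 70.3% and 63.3% before thinning and 19.4% and 15.3% after it.

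Within the YAP5SA epithelium, 311 cells carried UMIs of at least 2 squamous genes (keratins of stratified epithelium and Trp63), against 10 in Yap knockout and 31 in control. Squamous is used here and below as a label for this flag only. In YAP5SA, 21 of 220 erythroid and 20 of 200 endothelial cells carried it too. The part of free RNA in the flag was not tested. Wwc1 had 185 CPM (174 to 197) in the 311 flagged YAP5SA epithelial cells and 225 CPM (216 to 234) in the other 1291. Wwc2 had 163 CPM (152 to 174) in the flagged cells and 181 CPM (173 to 189) in the others. Both levels were thus above those of all control epithelial cells in either kind of YAP5SA cell. The other 8 members differed less than 1.5-fold between these cells.

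Outside the epithelium, Wwc1 was the member that differed from control in the most classes. It was past 1.5-fold higher in YAP5SA in 8 of 8 classes. Its ratios ran from 2.22 (1.30 to 3.86) in enteric glia to 8.81 (3.47 to 28.6) in endothelium, the latter from 5 control UMIs. Of all genes, 26.4% passed that limit in the epithelium, 12.4% in fibroblasts, 7.94% in smooth muscle, 12.1% in interstitial cells of Cajal, 11.1% in endothelium, 9.08% in enteric neurons, 11.0% in enteric glia and 13.0% in macrophages. In fibroblasts it had 30.7 CPM in YAP5SA and 7.63 CPM in control, a ratio of 4.03 (3.30 to 4.94), and in macrophages it had 31.7 CPM in YAP5SA and 12.6 CPM in control, a ratio of 2.52 (1.67 to 3.95). Epithelial marker genes were read beside it there. Krt18, a keratin of simple epithelia, Rab25, an epithelial trafficking GTPase, and Grhl2, an epithelial transcription factor, had median ratios of 4.67, 2.89 and 1.58 over the 7 other classes, beside 2.76 for Wwc1. In those classes Wwc1 stood at a median of 14.5% of its epithelial level in YAP5SA, 17.2% in Yap knockout and 12.5% in control. Krt18 stood at 4.83% in YAP5SA, 2.79% in Yap knockout and 2.37% in control, and Rab25 at 5.46% in YAP5SA, 2.54% in Yap knockout and 2.08% in control. Grhl2 stood at 21.3% in YAP5SA, 13.6% in Yap knockout and 20.3% in control, above Wwc1 in YAP5SA and control. The Grhl2 values rest on few UMIs, such as 7 in YAP5SA, 0 in Yap knockout and 1 in control interstitial cells of Cajal. By class its ratios in YAP5SA ran from 0.791 to 9.65. Erythroid cells, read above for free RNA, had 20.5 CPM of Wwc1 in YAP5SA and 2.48 CPM (2 UMIs) in control. Endothelium had 20.0 CPM in YAP5SA and 2.28 CPM in control. The part of epithelial RNA in the Wwc1 values outside the epithelium was not tested.

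Wwc2 did not follow Wwc1 outside the epithelium. Its ratios of YAP5SA to control in the 7 other classes had a median of 1.02, from 0.942 in enteric neurons to 1.67 (1.24 to 2.25) in interstitial cells of Cajal, the only one of them past 1.5-fold, where 12.1% of genes were higher. A Wwc2 level past 1.5-fold higher in YAP5SA was therefore measured in the epithelium and, to a smaller size, in interstitial cells of Cajal. Fibroblasts (1.13, 1.05 to 1.21) and endothelium (1.17, 1.003 to 1.35) were inside the limit, with intervals above 1. In Yap knockout endothelium Wwc2 had 244 CPM, against 158 CPM in control, a ratio of 1.55 (1.35 to 1.77), where 20.6% of genes were higher.

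Dchs1 was below control in 8 of 8 classes in both comparisons, with the interval wholly below 1 in 6 classes in YAP5SA and 3 in Yap knockout. Its ratios ran from 0.497 (0.369 to 0.674) in macrophages to 0.967 in enteric neurons in YAP5SA, with 3 classes past 1.5-fold (epithelium, enteric glia and macrophages), and from 0.240 in macrophages to 0.968 in neurons in Yap knockout, with 2 past it (epithelium and macrophages). Enteric glia had 40.2 CPM of Dchs1 in YAP5SA and 60.4 CPM in control, where 13.0% of genes were lower. In macrophages, where 15.8% of genes in YAP5SA and 24.5% in Yap knockout were lower, Dchs1 had 17.8 CPM in YAP5SA, 8.60 CPM in Yap knockout and 35.9 CPM in control, and the median gene of Yap knockout macrophages was itself shifted by −0.15 on the log2 scale. The fibroblast markers summed to 3168 CPM in YAP5SA, 867 CPM in Yap knockout and 6837 CPM in control macrophages. The part of free RNA in the Dchs1 values of these classes was not tested. In fibroblasts, which express Dchs1, it had 85.5 CPM in YAP5SA, 97.2 CPM in Yap knockout and 114 CPM in control.

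Sav1 was above control in Yap knockout in 7 of 7 classes with at least 20 UMIs. In fibroblasts it had 22.2 CPM in Yap knockout and 8.66 CPM in control, a ratio of 2.56 (1.85 to 3.50), where 26.1% of genes were higher and the median gene was shifted by 0.11. In endothelium Sav1 had 34.4 CPM in Yap knockout and 21.4 CPM in control, a ratio of 1.61 (1.10 to 2.37), where 20.6% were higher, and in enteric glia it had 16.9 CPM in Yap knockout and 10.6 CPM in control, a ratio of 1.60 (0.846 to 3.21), where 17.4% were. Stk3 was past 1.5-fold higher in 3 Yap knockout classes, fibroblasts (72.7 CPM in Yap knockout, 43.3 CPM in control), endothelium (65.1 CPM in Yap knockout, 33.2 CPM in control) and interstitial cells of Cajal (150 CPM in Yap knockout, 99.4 CPM in control, where 20.6% of genes were higher), and lower in macrophages (19.0 CPM in Yap knockout, 30.5 CPM in control). Nf2 had 70.7 CPM in YAP5SA and 37.7 CPM in control interstitial cells of Cajal, a ratio of 1.88 (1.20 to 2.97). In enteric glia it had 38.9 CPM in Yap knockout and 65.7 CPM in control, a ratio of 0.593 (0.434 to 0.808), where 15.2% of genes were lower.

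The members past the limit were also counted in the classes outside the epithelium, beside the share of all genes. In fibroblasts 1 member in YAP5SA and 2 in Yap knockout passed 1.5-fold in either direction, where 25.8% of all genes in YAP5SA and 38.3% in Yap knockout did. In smooth muscle it was 1 in YAP5SA (20.8% of genes) and 1 in Yap knockout (29.0%), and in interstitial cells of Cajal 4 of the 8 measured members in YAP5SA (22.2%) and 2 of the 7 in Yap knockout (36.8%). In endothelium it was 2 of 10 in YAP5SA (22.2%) and 4 of 9 in Yap knockout (35.8%), and in enteric neurons 2 of 9 in YAP5SA (23.0%) and 0 of 10 in Yap knockout (30.3%). In enteric glia it was 2 of 10 in YAP5SA (24.0%) and 4 of 10 in Yap knockout (32.6%), and in macrophages 2 of 10 in YAP5SA (28.8%) and 3 of 10 in Yap knockout (32.5%).

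The other genes of the pathway were read as a list of 35 by role. In YAP5SA epithelium 15 were past 1.5-fold higher and 1 lower, and their median log2 ratio was 0.40, beside 0.05 over all genes, of which 26.4% were higher and 20.5% lower. By role, 6 of 7 effectors and 8 of 14 upstream and junction genes were higher, against 1 of 8 further kinases and adaptors and 0 of 6 subunits of the STRIPAK phosphatase complex, which counters the Stk kinases. Lats2, the partner of Lats1, had 35.9 CPM in YAP5SA and 15.3 CPM in control, a ratio of 2.35 (1.77 to 3.17), where Lats1 had 0.948. The highest ratios were those of Tead4, a YAP partner on DNA, with 36.3 CPM in YAP5SA and 1.73 CPM in control (21.0, 9.57 to 57.3, from 6 control UMIs), and of Ajuba, a LIM protein that inhibits Lats kinases, with 72.9 CPM in YAP5SA and 6.63 CPM in control (11.0, 7.29 to 17.4). Fjx1, the mouse four-jointed kinase that in flies acts on Fat and Dachsous cadherins, had a ratio of 5.36 (3.40 to 8.98), and Wtip, a LIM protein related to Ajuba, one of 3.53 (2.92 to 4.30). The lowest were the kinases Taok3 (0.586, 0.507 to 0.678) and Stk38 (0.745, 0.593 to 0.944), the STRIPAK subunit Slmap (0.706, 0.579 to 0.866) and the scaffold Dlg5 (0.773, 0.577 to 1.05). Fat4, the partner cadherin of Dchs1, had 15.3 CPM in YAP5SA and 19.3 CPM in control (0.791, 0.603 to 1.05).

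In the Yap knockout 34 of the 35 had enough UMIs, of which 4 were higher and 8 lower, where 16.7% of all genes were higher and 13.4% lower, and the median log2 ratio was −0.12, beside 0.03 over all genes. Among the highest were the Lats-related kinase Stk38l, with 20.6 CPM in Yap knockout and 9.52 CPM in control (2.16, 1.47 to 3.27), the STRIPAK subunit Strn (1.54, 1.04 to 2.34) and the kinase Taok1 (1.53, 1.26 to 1.87). The lowest were Yap1 itself (0.445), Ajuba (0.447, 0.233 to 0.851), Fjx1 (0.541, 0.274 to 1.07) and the phosphatase Ptpn14, which binds YAP (0.563, 0.447 to 0.709). Ajuba and Fjx1 rest on 20 knockout UMIs each. Fat4 had a ratio of 0.644 (0.462 to 0.902) and Lats2 one of 0.688 (0.475 to 1.00), while Tead4 had too few UMIs (13 in Yap knockout and 6 in control) to be read.

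**Figure D5:**
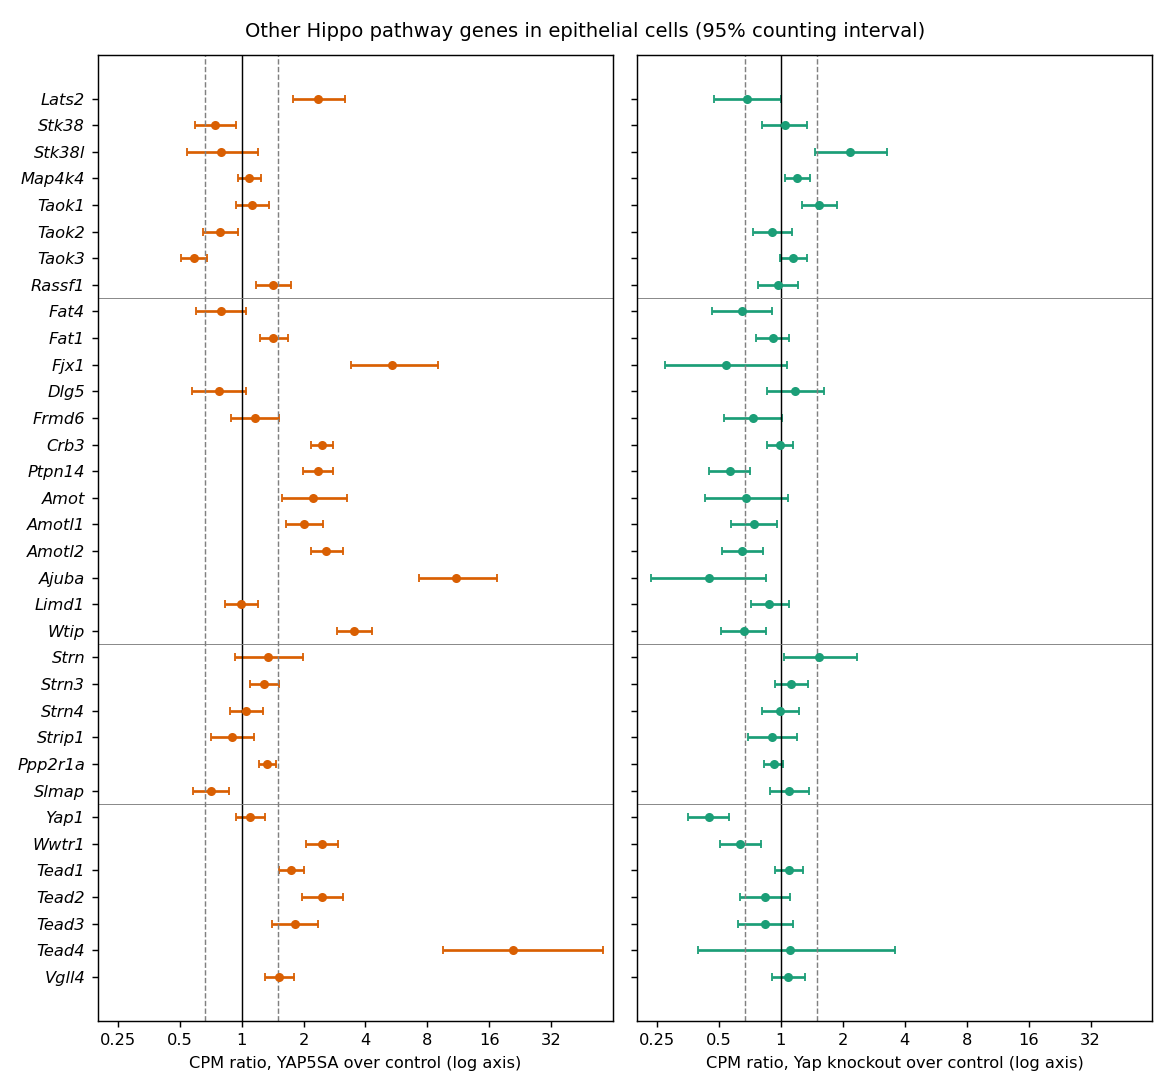
Ratio of CPM in epithelial cells for 34 of the 35 other pathway genes, grouped from top to bottom as kinases and adaptors, upstream and junction genes, STRIPAK subunits and effectors, with YAP5SA over control at left and Yap knockout over control at right (log axes, 95% counting intervals, dashed lines at 1.5-fold). At left 15 points lie past the upper line, up to 21.0 for Tead4, and at right 3 do.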

How the data were processed

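Single-cell RNA libraries of hindstomach, 1 per genotype, were read as deposited counts. These are unnormalised UMI totals for every gene in every cell, made with PISA 1.0 per the file headers, after alignment with STAR to GRCm39 per the submitters' processing notes. The authors' strand setting and any free-RNA correction are not given in the sources used here. The libraries held 65843658 UMIs in 9439 cells (YAP5SA), 40857358 in 5739 (Yap knockout) and 48910624 in 7692 (control), with at least 1000 UMIs per cell. Cell names are numbered within a library (2409, 1528 and 1388 names recur between pairs of libraries) and hold no barcode sequence, so shared barcodes could not be counted.

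Cells with at least 500 genes and at most 20% mitochondrial UMIs passed (9029 YAP5SA, 5201 Yap knockout and 7372 control cells). Scrublet's own threshold called 0 doublets, so the highest 6% of its scores were removed (511 YAP5SA, 311 Yap knockout and 413 control cells). A cell's score for each of 14 marker classes was the mean log-normalised marker level (scaled to 10000 UMIs), less the library's background and divided by the level of the top 100 cells. It took a class with a score of at least 0.2, a lead of 1.5-fold over the next class and at least 3 markers detected, and 1913 YAP5SA (22.5%), 1471 Yap knockout (30.1%) and 1542 control (22.2%) cells took none. These limits were set after the cells had been seen. Of the epithelial cells, 91 in YAP5SA, 81 in Yap knockout and 66 in control lay near the lead limit.

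UMIs were summed per class and library and given as CPM. Ratios carry an exact 95% interval, conditional on the sum of both Poisson counts, and shares carry Clopper-Pearson intervals. No test was possible with 1 library per genotype. A gene was past the limit at 1.5-fold, with at least 20 UMIs over both libraries. Sums were scaled by TMM (edgeR 4.0.16, R 4.3.3) as an alternative, and other alternatives are given in the closing section. All 10 members are named, and of the other pathway genes the 4 highest and 4 lowest per comparison together with Lats2, Yap1, Fat4 and Tead4, except 1 gene that is not reported here. Genes most like a member were ranked among those with at least 20 CPM in 1 sum, leaving out mitochondrial, ribosomal, haemoglobin, sex-linked marker and predicted genes. The members and lists were chosen with earlier results of these data known. The tools were scanpy 1.11.5, anndata 0.12.19, igraph 0.11.9, pandas 2.3.3, scipy 1.17.1, numpy 2.4.6 and matplotlib 3.10.9 in Python 3.11.15, and the ratio step was tested on simulated data. Promoters are RefSeq windows of GRCm38.p6, and overlapping genes and transcript ends were read from the GENCODE vM21 annotation.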

Additional observations from a re-analysis of the deposited data

How the results depend on the processing

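The count of members past 1.5-fold in YAP5SA epithelium, 4 of 10, was 4 to 6 under 9 of 10 alternatives (doublets kept, a 10% mitochondrial limit, at least 2000 UMIs per cell, a stricter gate, each cell weighed the same, TMM, squamous cells left out, no filter on low counts, and epithelial clusters in place of the gate, the last chosen after seeing the data). It was 7 (5 higher and 2 lower) with the RNA of other cells subtracted, which took 26.6% of YAP5SA, 24.3% of Yap knockout and 37.6% of control epithelial UMIs. In the Yap knockout the count was 1. It was 2 with doublets kept, the 10% mitochondrial limit, at least 2000 UMIs, each cell weighed the same and TMM. It was 3 with squamous cells left out, and 1 under the others. The members past the limit were not the same throughout. With RNA subtracted Wwc2 was past it (0.286), and Dchs1 was 0 in both libraries. With each cell weighed the same Stk4 was past it (2.34) and Dchs1 was not (0.735). Lats1 passed in 1 of 10 (up to 1.52). The cause of these moves was not tested. Wwc1 and Wwc2 were past 1.5-fold higher in YAP5SA under 10 of 10 alternatives (2.18 to 2.75 and 3.65 to 10.7). Of 198 member ratios under alternatives 187 stayed within the counting interval and none that had passed turned direction, and of 40 class orders 35 kept their highest and lowest class. Of the other 5, 4 (Stk3, Lats1, Mob1b and Dchs1) lost interstitial cells of Cajal as the highest class under the stricter gate, which left under 50 such cells in a library. TMM moved the median gene of YAP5SA epithelium from 0.09 to 0.21 on the log2 scale. All 30 shares moved with thinning. With 1 CPM in place of 5 CPM added, the medians of the pathway list were 0.41 in YAP5SA and −0.13 in Yap knockout. The clusters used in place of the gate were 7 of 29 and held 1798 YAP5SA, 1359 Yap knockout and 946 control cells. Depth limits Sav1 most, with 31 control epithelial UMIs. No paired analysis was possible because each genotype has 1 library, and for the same reason none could be left out.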
